A study of Mus musculus with 7 samples.

Results

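A set of 10 genes of the pathway that removes misfolded proteins from the endoplasmic reticulum were followed in mouse prostate with and without an activated Notch1 receptor. The genes were Derl1, Derl2, Derl3, Edem1, Edem2, Herpud1, Sel1l, Syvn1, Os9 and Vcp, 10 of the 17016 genes that could be named on the array, and every non-control probe whose accession belonged to one of them was taken, 20 probes in all. They were picked by name with the PB-NICD against control changes of these same arrays already known, so those changes are given as a description and carry no test. Per the labels, the 3 PB-NICD samples were prostates of ARR2PB-Cre;ROSA(N1IC) mice, in which a Cre recombinase under the prostate promoter ARR2PB releases the domain of Notch1 that acts inside the cell from the ROSA locus, and which develop prostatic intraepithelial neoplasia. The 4 control samples were prostates of ROSA(N1IC) mice, labelled wild-type for the domain. All mice were of C57Bl/6 background. The sources used here do not give ages, prostate lobes or pooling of animals, so p-values measure the spread between these samples. Each prostate RNA, labelled red, was hybridised with Stratagene universal mouse reference RNA, labelled green, on a 2-colour Agilent array. Every value below is a log2 ratio of prostate over reference, and a change is the mean of the PB-NICD arrays less that of the control arrays.

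Proteins that fail to fold in the endoplasmic reticulum are recognised there, passed back across its membrane, tagged with ubiquitin and destroyed by the proteasome, a route called reticulum-associated degradation. Lectins read trimmed sugar chains on the misfolded protein, a membrane complex built around the ubiquitin ligase Syvn1 and its partner Sel1l carries it out, and the ATPase Vcp pulls it into the cytosol. Secretory epithelia such as the prostate make large amounts of secreted protein, and several of these genes are known targets of the unfolded protein response, the signalling that adjusts the capacity of the reticulum.

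The targeted gene separated the groups. Notch1 was at 2.46, 2.58 and 2.71 on the PB-NICD arrays, against 0.05, 0.30, 0.84 and 0.66 on the control arrays, a change of 2.18 ± 0.21 (SE, limma adjusted p = 0.000218), although the spot behind the 2.46 was marked as an outlier and was not in the fit. The arrays were dim in the prostate channel, with median spot signals of 69 to 107 against 325.5 to 423 in the reference channel, and 44.8% to 66.8% of spots were well above background in it. All 20 probes of the degradation genes were well above background in that channel on all 7 arrays. Prostate identity was clear from probasin, Pbsn, a secreted prostate protein, at 9.67 to 10.11 in PB-NICD and 9.87 to 11.60 in control. Across 10378 items measured on every array, pairs of PB-NICD arrays correlated at 0.946 to 0.954, pairs of control arrays at 0.921 to 0.960 and mixed pairs at 0.816 to 0.904. Array PB-NICD 1 shared slide 1 with control 1 and 2, and the other 4 arrays shared slide 2.

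All 10 genes were lower in PB-NICD, and for each the measured PB-NICD values lay below the measured control values without overlap. Their median change was -1.30, beside -0.02 over all 16939 items tested. Of the 10, 9 passed the limma test over all items, which called 4.60% of items lower and 3.49% higher. Non-overlap in this direction held for 14.1% of items. The genes were chosen on this contrast, so nothing is read from these counts. Without PB-NICD 1, 5 of the 10 passed. The changes fell into a steep group, Derl3, Edem1, Sel1l, Edem2, Herpud1 and Syvn1, between -2.80 and -1.27, and a shallow group, Os9, Derl2, Derl1 and Vcp, between -0.77 and -0.46. With median centring in place of loess, which moved the median change of all items to 0.31, the steep group stayed negative and the shallow group turned slightly positive, Derl1 to 0.03, Derl2 to 0.10, Os9 to 0.12 and Vcp to 0.11. Relative to that shifted median, the shallow group was still lower, at -0.28 for Derl1, -0.21 for Derl2, -0.20 for Os9 and -0.20 for Vcp. In bulk tissue, fewer cells of a type and less RNA per cell cannot be told apart.

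**Figure D1:**
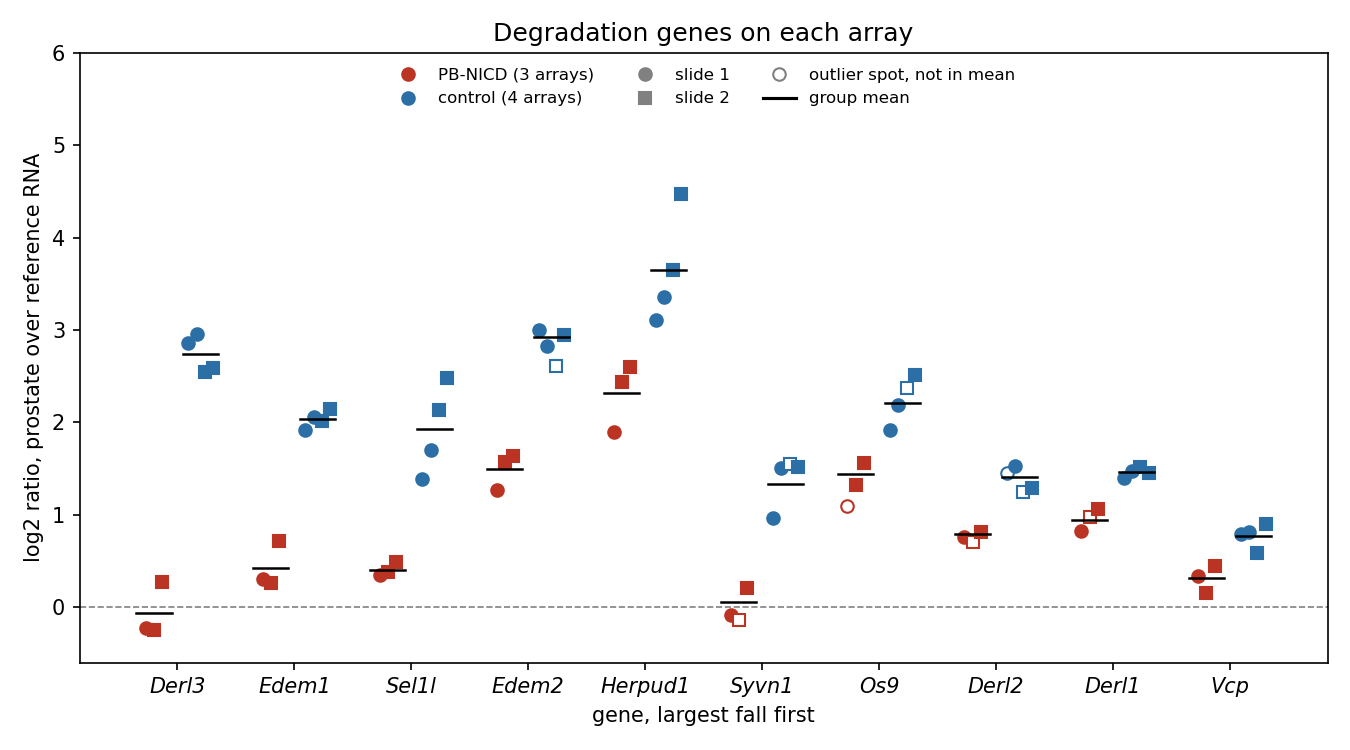
Log2 ratio of prostate over reference RNA (vertical axis) for the brightest tested probe of each of the 10 genes on the 3 PB-NICD arrays (red) and the 4 control arrays (blue), with group means as bars, circles for slide 1, squares for slide 2 and open symbols for outlier spots kept out of the means. In each gene all red points lie below all blue points, with the widest gap at Derl3, where PB-NICD averaged -0.07 and control 2.74; under median centring Derl1, Derl2, Os9 and Vcp turned slightly positive.

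Each of the 3 recognition genes among the 10 was lower. Of 10 other lectin and glycan genes tested, 6 were negative and 4 positive, with Edem3 at 0.01 and Man1b1 at 0.16. Edem1, a mannosidase-like protein that trims and hands on misfolded glycoproteins, was at 0.30, 0.26 and 0.72 in PB-NICD, against 1.92, 2.06, 2.02 and 2.15 in control. The control arrays agreed to within a narrow band and the PB-NICD arrays all sat more than a log2 unit beneath it, a change of -1.61 ± 0.13 (SE), or 3.05-fold lower. Its other 2 probes gave the same picture at lower ratios, with changes of -0.97 and -0.90. Edem2, the relative that starts mannose trimming, was at 1.27, 1.57 and 1.64 in PB-NICD, against 3.00, 2.83 and 2.94 in control, with the spot of control 3 (2.62) marked as an outlier. The groups were far apart, with a change of -1.43 ± 0.14 (SE), 2.69-fold lower. Os9, a lectin that delivers trimmed glycoproteins to Sel1l, was at 1.33 and 1.56 in PB-NICD, against 1.92, 2.19 and 2.51 in control, with outlier spots of 1.10 on PB-NICD 1 and 2.37 on control 3. Its change of -0.77 ± 0.19 (SE) rested on 2 PB-NICD and 3 control arrays, and a brighter probe, left untested because outlier spots took too many of its values, gave -1.04 with those spots kept. Of these 3 genes, Os9 is the one whose sign depended on the scaling, at 0.12 with median centring.

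The membrane ligase and its scaffold were lower together. Syvn1, the ubiquitin ligase of the complex also called Hrd1, was at -0.09 and 0.21 in PB-NICD, against 0.97, 1.51 and 1.52 in control, with outlier spots of -0.13 on PB-NICD 2 and 1.55 on control 3. With loess the PB-NICD ratio was thus near 0, a level that depends on that normalization. The change was -1.27 ± 0.20 (SE), 2.42-fold lower. The second probe of Syvn1 showed it more strongly, at -0.02, 0.29 and 0.86 in PB-NICD and 1.60, 1.77, 2.34 and 2.51 in control, a change of -1.68. This probe took over when PB-NICD 3 was left out, with a change of -1.92, and within slide 2, with -1.86. Sel1l, the adaptor that holds substrates and lectins at the ligase, was at 0.35, 0.38 and 0.48 in PB-NICD, against 1.39, 1.70, 2.14 and 2.48 in control. Its PB-NICD values were tightly grouped (SD 0.07) while its control values spread widely (SD 0.48), lower on slide 1 than on slide 2. The change was -1.52 ± 0.22 (SE), and the other Sel1l probe gave -1.17. Herpud1, a short-lived membrane protein that helps assemble the complex, was at 1.90, 2.44 and 2.60 in PB-NICD, against 3.11, 3.36, 3.65 and 4.47 in control. It was the most variable of the 10 genes among controls (SD 0.59), yet the groups did not overlap, and the change was -1.33 ± 0.29 (SE), 2.52-fold lower.

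The derlins, membrane proteins of the exit channel, were lower by very different amounts. Derl3, the family member most tied to secretory tissue and to stress signalling, was at -0.22, -0.25 and 0.27 in PB-NICD, against 2.86, 2.96, 2.55 and 2.59 in control. No other of the 10 genes was separated as widely, with a change of -2.80 ± 0.16 (SE), 6.98-fold lower, the 28th most negative of all items. In raw scanner units its prostate-channel spot read 139.5, 211.5 and 358.5 on the PB-NICD arrays, against 686.5, 852.5, 1005.5 and 1236 on the control arrays, while its reference-channel spot read 954 to 1489.5 on the PB-NICD arrays and 1232.5 to 1775 on the control arrays. Derl2 was at 0.76 and 0.82 in PB-NICD, against 1.52 and 1.29 in control, with outlier spots of 0.70 on PB-NICD 2, 1.46 on control 1 and 1.25 on control 3. Its change of -0.62 ± 0.16 (SE) was the one among the 10 that did not pass, on 2 arrays a group, and it was 0.10 with median centring. Derl1 was at 0.83 and 1.07 in PB-NICD, against 1.39, 1.48, 1.52 and 1.46 in control, with an outlier spot of 0.97 on PB-NICD 2. Its change was -0.51 ± 0.13 (SE), or 0.03 with median centring, and its other 3 probes gave -0.42, -0.29 and -0.15 with outlier spots kept. Leaving out an array that held 1 of only 2 values moved the test to another probe of the gene, and the size then differed. Derl1 was at -0.10 without PB-NICD 1, -0.15 without PB-NICD 3 and -0.19 within slide 2. Derl2 was at -0.29 without PB-NICD 1, -0.40 without PB-NICD 3 and -0.36 without control 4, and at -0.29 within slide 1.

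Vcp, the ATPase that extracts tagged proteins and serves many other routes in the cell, had the smallest change. It was at 0.34, 0.16 and 0.44 in PB-NICD, against 0.79, 0.81, 0.58 and 0.90 in control. The gap between the highest PB-NICD and the lowest control value was narrow, and the change was -0.46 ± 0.12 (SE), 1.38-fold lower, turning to 0.11 with median centring. Its other, brighter probe gave -0.86 with outlier spots kept, with 5 of its 7 spots marked as outliers.

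The promoters of 4 of these genes are printed because each holds a motif of the unfolded protein response. RefSeq windows on GRCm38.p6 were available for 9 of the 10 genes, and the 250 bases before the annotated start were searched on both strands. The motifs were the endoplasmic reticulum stress element (CCAAT, 9 free bases, CCACG), its second form (ATTGG, 1 free base, CCACG), the unfolded protein response element TGACGTGG and the RBPJ core TGGGAA, the letters bound by the DNA-binding partner of activated Notch. Capitals mark the stress motif in each sequence, 5′ to 3′ on the gene's strand.
Derl3 (GRCm38.p6, plus strand, chr10:75893148-75893397): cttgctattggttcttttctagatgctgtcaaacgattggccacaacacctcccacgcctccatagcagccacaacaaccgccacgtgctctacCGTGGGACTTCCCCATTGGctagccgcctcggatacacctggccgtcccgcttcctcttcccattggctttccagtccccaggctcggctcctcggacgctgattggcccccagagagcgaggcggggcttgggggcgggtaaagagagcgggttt
Syvn1 (GRCm38.p6, plus strand, chr19:6046326-6046575): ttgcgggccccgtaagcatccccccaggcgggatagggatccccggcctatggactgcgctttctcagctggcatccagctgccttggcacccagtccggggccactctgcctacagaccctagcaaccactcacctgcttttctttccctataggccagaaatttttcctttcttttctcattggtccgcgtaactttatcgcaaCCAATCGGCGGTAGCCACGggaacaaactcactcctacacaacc
Herpud1 (GRCm38.p6, plus strand, chr8:94386179-94386428): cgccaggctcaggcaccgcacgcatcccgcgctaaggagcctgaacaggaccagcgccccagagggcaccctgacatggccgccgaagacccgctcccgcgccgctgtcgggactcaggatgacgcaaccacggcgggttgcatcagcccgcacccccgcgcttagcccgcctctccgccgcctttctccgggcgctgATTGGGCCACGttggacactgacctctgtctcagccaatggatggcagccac
Vcp (GRCm38.p6, minus strand, chr4:43000508-43000757): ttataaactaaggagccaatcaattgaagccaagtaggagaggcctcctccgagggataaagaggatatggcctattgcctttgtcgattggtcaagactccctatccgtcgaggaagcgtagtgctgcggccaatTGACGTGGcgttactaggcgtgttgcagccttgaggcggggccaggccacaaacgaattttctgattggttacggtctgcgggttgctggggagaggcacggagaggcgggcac
The stress element lay 156 to 138 bases before the start of Derl3, on the opposite strand, and 44 to 26 bases before that of Syvn1. The second form lay 52 to 42 bases before Herpud1, and the response element 114 to 107 bases before Vcp. The Herpud1 window ends in CCAAT, 9 bases and CCAC, so its edge cuts a possible first form 1 base short. The search could not count it. Among 32851 mouse promoter windows of the same length, the first form was in 37 (0.1126%), the second in 10 (0.0304%), the response element in 185 (0.5631%) and the RBPJ core in 7094 (21.5945%). The RBPJ core was in 1 of the 9 genes, Derl3, 99 to 94 bases before the start on the opposite strand and apart from the stress element. These matches are letters in a window and show no binding.

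Probe by probe, the direction was shared. All 20 probes were lower in PB-NICD with outlier spots kept, with a median change of -0.95, and for 17 of them no PB-NICD value reached a control value. Over the 21282 tested probes, 11.1% were separated in this direction. Of the 17 probes that met the criteria for the test, 13 were called lower, beside 4.32% of tested probes. The genes of these probes were chosen on this contrast, so nothing is read from these counts. The probes whose groups overlapped were 2 low-ratio probes of Derl1 and 1 of Derl2, each with a PB-NICD value above the lowest control value. In all, 23 of the 140 probe and array values came from outlier spots, spread over 10 probes. The channels shared the changes unevenly. Channel values were rebuilt from the normalized ratio and mean intensity of each spot, so each depends on both dyes. In this split the prostate channel was lower for 19 of the 20 probes, between -2.81 and 0.03. The reference channel, which held the same RNA on every array, moved between -0.29 and 0.41. The Derl3 probe was at -2.81 in the prostate channel and -0.01 in the reference channel, whereas the tested Vcp probe was at -0.25 and 0.21. For 1 Derl1 probe the prostate channel was at 0.03 and the reference channel at 0.18, so in this split its lower ratio lay in the reference channel.

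**Figure D2:**
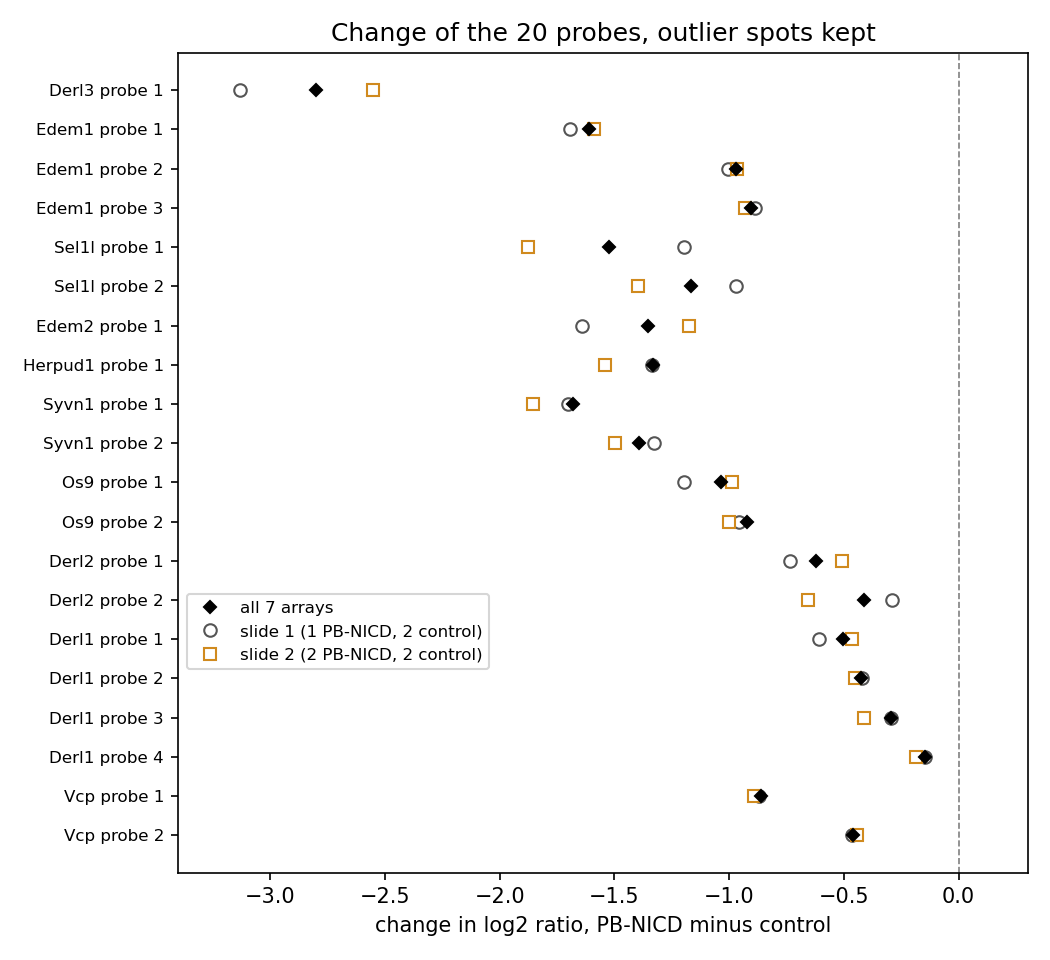
Change in log2 ratio, PB-NICD minus control (horizontal axis), for the 20 probes of the 10 genes with outlier spots kept, over all 7 arrays (diamonds), within slide 1 (circles) and within slide 2 (squares). Every symbol lies left of 0, with medians of -0.95 over all arrays, -0.96 within slide 1 and -0.98 within slide 2, while median centring in place of loess turned the brightest tested probes of Derl1, Derl2, Os9 and Vcp positive.

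Each slide held both groups, so the same values can be given slide by slide, as a description. With PB-NICD 1 set against control 1 and 2 on slide 1, all 20 probes were lower with a median of -0.96, and with PB-NICD 2 and 3 set against control 3 and 4 on slide 2, all 20 were lower with a median of -0.98. Over all items the medians were -0.02 and -0.01. Whether the change differed between slides is a contrast that did not choose the genes, and limma with a slide by group interaction called none of the 8 genes that had a p-value, Derl2 and Os9 having none. The largest interaction was that of Sel1l, whose change was more negative on slide 2 than on slide 1 by -0.68 ± 0.28 (SE, limma unadjusted p = 0.0323, adjusted p = 1.00). Derl3 went the other way, by 0.58 ± 0.29 (SE, limma unadjusted p = 0.0691, adjusted p = 1.00). The same test called 0.0260% of 15382 items, with 3.46% below an unadjusted 0.05. The test rests on 1 PB-NICD array on slide 1, and a missed threshold there does not show that the slides gave the same change.

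Against the reference RNA, a pool of mouse cell lines, control prostate had ratios above 0 for all 10 genes. The control values took part in the choice of the genes, so these levels are a description with no test. Over all items, limma called 35.8% above the reference and 30.2% below it. Herpud1 led at 3.65 ± 0.19 (SE), 12.5-fold above the reference, followed by Edem2 at 2.92 ± 0.10 and Derl3 at 2.74 ± 0.11, whose order is within error. Os9 at 2.21 ± 0.12, Edem1 at 2.04 ± 0.09 and Sel1l at 1.93 ± 0.14 came next, with neighbours again within error, as were Derl1 at 1.46 ± 0.07, Derl2 at 1.41 ± 0.12 and Syvn1 at 1.33 ± 0.13. Vcp was lowest at 0.77 ± 0.08, at the 83.1 percentile of all items. The PB-NICD means against the same reference were 2.31 for Herpud1 and 1.49 for Edem2, but -0.07 for Derl3 and 0.06 for Syvn1. With loess those 2 genes were thus near a ratio of 0 in PB-NICD, a level that depends on that normalization. The dyes were not swapped, so an effect of the dye is part of each level. With median centring, limma placed 6 of the 10 genes above the reference at adjusted p under 0.05, against 10 with loess. These counts are a description, and a ratio above 0 that missed the threshold is not in the 6.

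**Figure D3:**
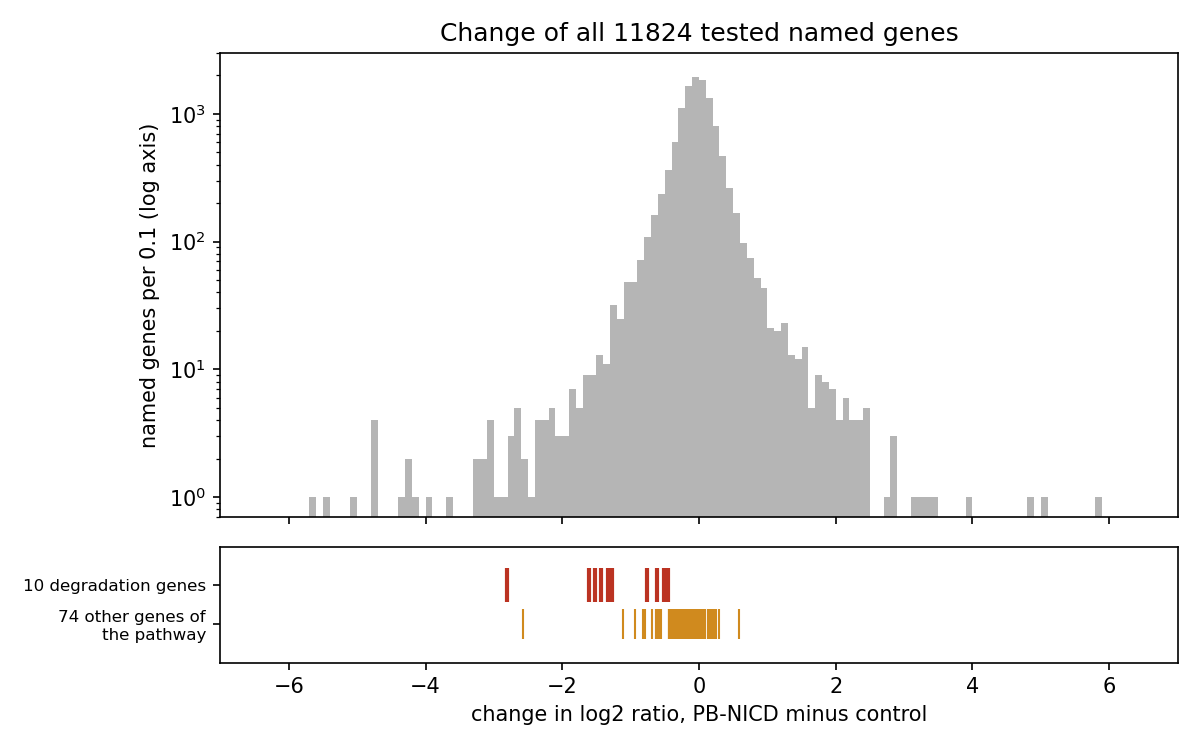
Change in log2 ratio, PB-NICD minus control, for the 11824 named genes tested (grey bars, number of genes per 0.1 on a log axis), with the 10 degradation genes (red marks) and 74 other genes of the pathway (orange marks) beneath. The 10 genes lie between -2.80 and -0.46 on the left side (Derl1, Derl2, Os9 and Vcp were slightly above 0 with median centring), while the 74 others spread around a median of -0.16 from -2.57 to 0.58.

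The other genes of the pathway were counted from a list. Of 81 other listed genes, 79 were on the array and 74 were tested, and 11 fell and 1 rose, against 4.60% and 3.49% of all items. Their median change was -0.16, beside -0.02 over all items, and 54 were negative and 20 positive. The list was written with earlier results of these data known. With median centring 1 of the 74 fell and 17 rose, beside 251 lower and 5380 higher of 16939 items. The list median was then 0.29, beside 0.31 for all items. Atf6, Stub1, Ube2n and Erlec1, among the genes that fell with loess, then stood at 0.03 to 0.31. Without PB-NICD 2 the count that fell was 6, and it was 7 without PB-NICD 1, control 1 or control 4.

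The deepest fall was that of Dnajc10, the reductase ERdj5 that opens disulphide bonds of misfolded proteins and works with the Edem proteins. It was at 1.79, 2.30 and 3.35 in PB-NICD, against 5.13, 4.72 and 5.30 in control, with control 3 left out as an outlier spot. The change was -2.57 ± 0.34 (SE, limma adjusted p = 0.00144), and a second probe gave -2.93. Among the lectin and glycan genes 2 of 10 fell, beside 4.60% of all items. The other was Erlec1, a lectin related to Os9, at -0.43 ± 0.11 (limma adjusted p = 0.0401). The Erlec1 call was lost without any 1 array (adjusted p 0.0503 to 0.139), and a second probe of it gave 0.17. Uggt1, the sensor that re-glucosylates misfolded glycoproteins, was at -0.57 (limma adjusted p = 0.0533), and Txndc11, a partner of the Edem proteins, at -0.45 (limma adjusted p = 0.126).

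Among Vcp cofactors and adaptors 2 of 26 fell, beside 4.60% of all items. Both were membrane selenoproteins that recruit Vcp to the reticulum. Selenok was at 1.49, 1.53 and 1.99 in PB-NICD, against 2.73, 2.90, 2.67 and 2.80 in control, a change of -1.11 ± 0.14 (SE, limma adjusted p = 0.000747). Selenos, which binds derlins and Vcp, was at 1.88, 2.37 and 2.41 in PB-NICD, against 3.16, 2.81, 3.35 and 3.31 in control, a change of -0.94 ± 0.17 (SE, limma adjusted p = 0.00653). Neither pair of groups overlapped. Get4, of the route that chaperones extracted proteins, was at -0.43 (limma adjusted p = 0.104).

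Among ubiquitin-conjugating enzymes 2 of 6 fell, beside 4.60% of all items. All 6 were negative, where the median change of all items was -0.02, and with median centring Ube2n turned to 0.14. Ube2j2, a membrane enzyme of the pathway, was at -0.62 ± 0.14 (SE, limma adjusted p = 0.0224), with other probes at -0.07 and -0.29. Ube2n, a cytosolic enzyme that builds lysine-linked chains, was at -0.55 ± 0.13 (SE, limma adjusted p = 0.024), with a second probe at 0.07. The Ube2j2 call was lost without PB-NICD 2, control 1 or control 4, with adjusted p up to 0.0776. The Ube2n call was lost without PB-NICD 1 or 2 or control 1, 2 or 4, with adjusted p up to 0.108.

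Of the 26 other membrane ligases and partners, 3 fell and 1 rose, beside 4.60% and 3.49% of all items. Stub1, a chaperone-linked ligase, was at 0.12, 0.23 and 0.30 in PB-NICD, against 0.86, 0.80, 0.83 and 0.79 in control, a change of -0.60 ± 0.10 (SE, limma adjusted p = 0.00463). Sel1l3, a relative of Sel1l, changed by -0.79 ± 0.19 (SE, limma adjusted p = 0.0343), and Insig1, which holds sterol-regulated cargo at membrane ligases, by -0.63 ± 0.16 (SE, limma adjusted p = 0.0371). Erlin1, a scaffold of a neighbouring degradation complex, was at -0.01 on the 2 PB-NICD arrays with a value, against -0.68, -0.64, -0.75 and -0.31 in control, a change of 0.58 ± 0.15 (SE, limma adjusted p = 0.0417). The Sel1l3 call was lost without PB-NICD 1 or 2 or control 1 or 4 (adjusted p up to 0.108), and the Insig1 call without these or control 2 (adjusted p up to 0.155). The Erlin1 call was lost without PB-NICD 1 or control 1, 2 or 3 (adjusted p up to 0.093). Rnf5, a ligase for early misfolded membrane proteins, was at -0.58 (limma adjusted p = 0.0781), and Erlin2 at -0.44 (limma adjusted p = 0.0846).

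Of 6 stress regulators, 2 fell, beside 4.60% of all items. Atf6, the transcription factor released from the membrane under stress, was at 0.84, 0.92 and 1.03 in PB-NICD, against 1.61, 1.44, 1.73 and 1.65 in control, a change of -0.68 ± 0.11 (SE, limma adjusted p = 0.00408), while a second probe gave -0.17. Eif2ak3, the kinase PERK that slows translation, was at -0.58, -0.47 and -0.62 in PB-NICD, against -0.06, 0.27, 0.37 and 0.47 in control, a change of -0.82 ± 0.14 (SE, limma adjusted p = 0.00411). The calls of Dnajc10, Selenok, Selenos, Stub1, Atf6 and Eif2ak3 were kept without each array in turn.

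**Figure D4:**
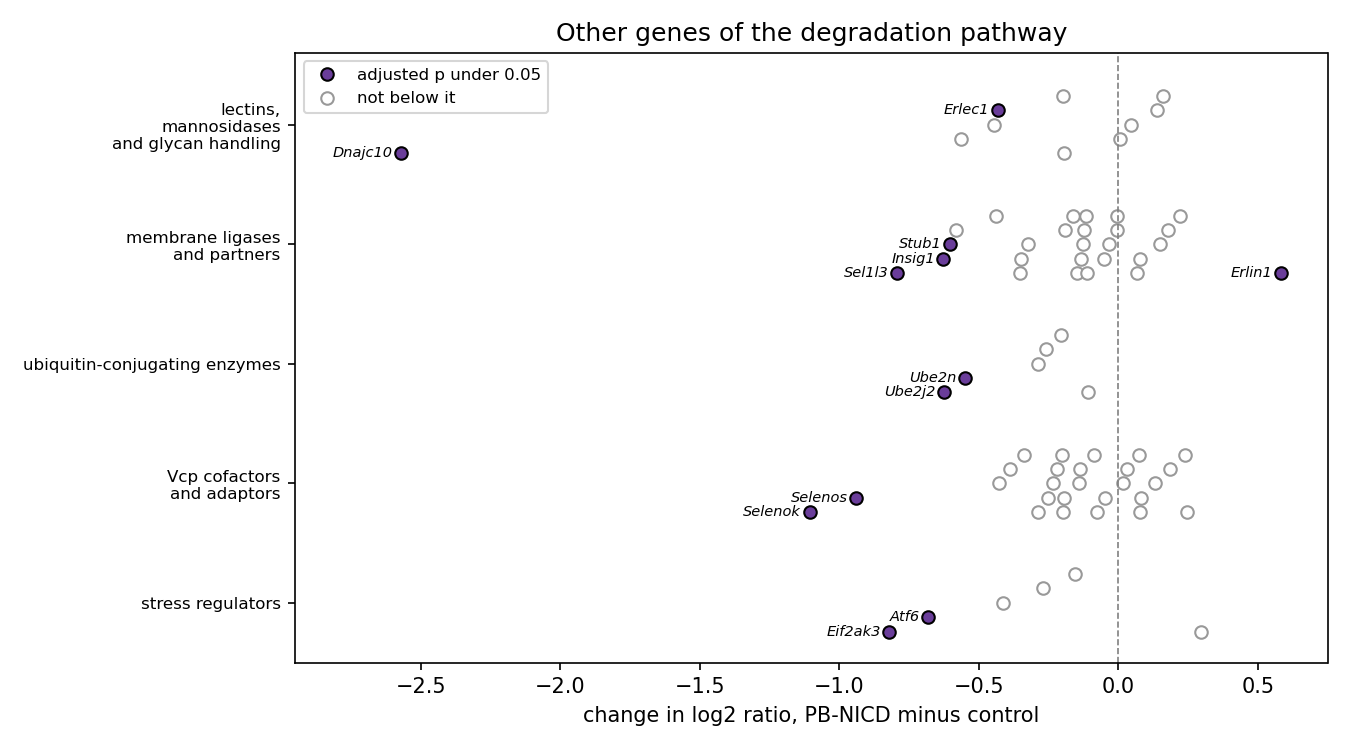
Change in log2 ratio, PB-NICD minus control (horizontal axis), for 74 further genes of the pathway in 5 groups by role, with filled points for limma adjusted p below 0.05 and open points otherwise. Filled points lie left of 0 for 11 genes, with Dnajc10 far out at -2.57, and right of 0 for Erlin1. With median centring 1 gene fell and 17 rose, beside 251 lower and 5380 higher of 16939 items.

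Markers of other cells moved with the groups in part. Beside the counts below, limma called 4.60% of all items lower and 3.49% higher. Of 7 basal cell markers 3 fell, Krt5 by 1.72, Krt15 by 1.11 and Itga6 by 0.52 on the log2 scale, and the summed ratio of the list was 8.62 to 10.05 in PB-NICD and 16.2 to 20.4 in control. Of 9 tested smooth muscle and stroma markers 2 fell, with sums of 26.2 to 38.2 in PB-NICD and 36.9 to 45.8 in control. Plasma and B cell markers, from cells rich in this pathway, summed to 3.89 to 5.10 in PB-NICD and 3.77 to 4.40 in control. Of 8 tested, 0 were called lower and 1 higher, Sdc1 at 0.94. Sdc1 had the highest mean log2 ratio of the 8, 0.86 in PB-NICD and -0.08 in control, so it weighs most in the sums. All other tested genes of that list were negative, and its median change was -0.31. The defining plasma cell genes Tnfrsf17 and Prdm1 were nowhere well above background, while Mzb1, well above it on all 7 arrays, was at -0.28 (limma adjusted p = 0.435) and Jchain at -0.47 (limma adjusted p = 0.426). Of 10 tested luminal secretory markers 1 fell and 1 rose, Cd24a at -2.06 and Krt19 at 1.03, and the list's median change was -0.04. The sums, 991 to 1253 in PB-NICD and 1152 to 3353 in control, are carried almost wholly by Pbsn. The part of these shifts in the changes of the 10 genes was not tested.

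Seminal vesicle RNA differed from array to array. Svs4, a seminal vesicle secretion, was at 5.72, 0.71 and 0.66 in PB-NICD, against 2.35, 9.36, -0.02 and -0.28 in control, high on all 3 arrays of slide 1. Svs5, another such secretion, was on slide 2 at 1.67 and 0.96 in PB-NICD, against 0.08 and -0.21 in control. The 0.08 came from an outlier spot. Both genes were thus higher in PB-NICD on slide 2. The 20 probes of the 10 genes had a median change of -0.98 on slide 2. Without control 2, the array highest in Svs4, the median change of the 10 genes was -1.31. These changes come from the values the genes were chosen on, and the part of seminal vesicle RNA in them was not tested.

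The genes most like the mean of the 5 degradation genes measured on all arrays (Derl3, Edem1, Herpud1, Sel1l and Vcp) over the 7 arrays were sought among 7519 named genes. Among the closest were Tle6 (Pearson r 0.997), Vat1 (0.995), Ncam1 (0.995) and Ccdc85b (0.994). Tle6, a relative of the Groucho co-repressors, was at -0.06, -0.06 and 0.57 in PB-NICD, against 2.06, 2.35, 2.51 and 2.70 in control. The 7 arrays share 1 group difference, which any gene with a clear change would follow, so these values are a description.

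One array depended on how its background was handled. On PB-NICD 1, 9 spots had local background of up to 47872 in the prostate channel, and when the background model was fitted with them its ratios were drawn towards 0, with a median absolute deviation of 0.052 against 0.366 without them. Those spots, and 5 on other arrays, were left out. Fitted on all spots, the ratio of Herpud1 on PB-NICD 1 was 0.71 in place of 1.90, and that of Edem2 was 0.75 in place of 1.27. Derl3 was at -0.11 in place of -0.22. The median change of the 10 genes was -1.39 by that fit, and 5 of them passed.

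**Figure D5:**
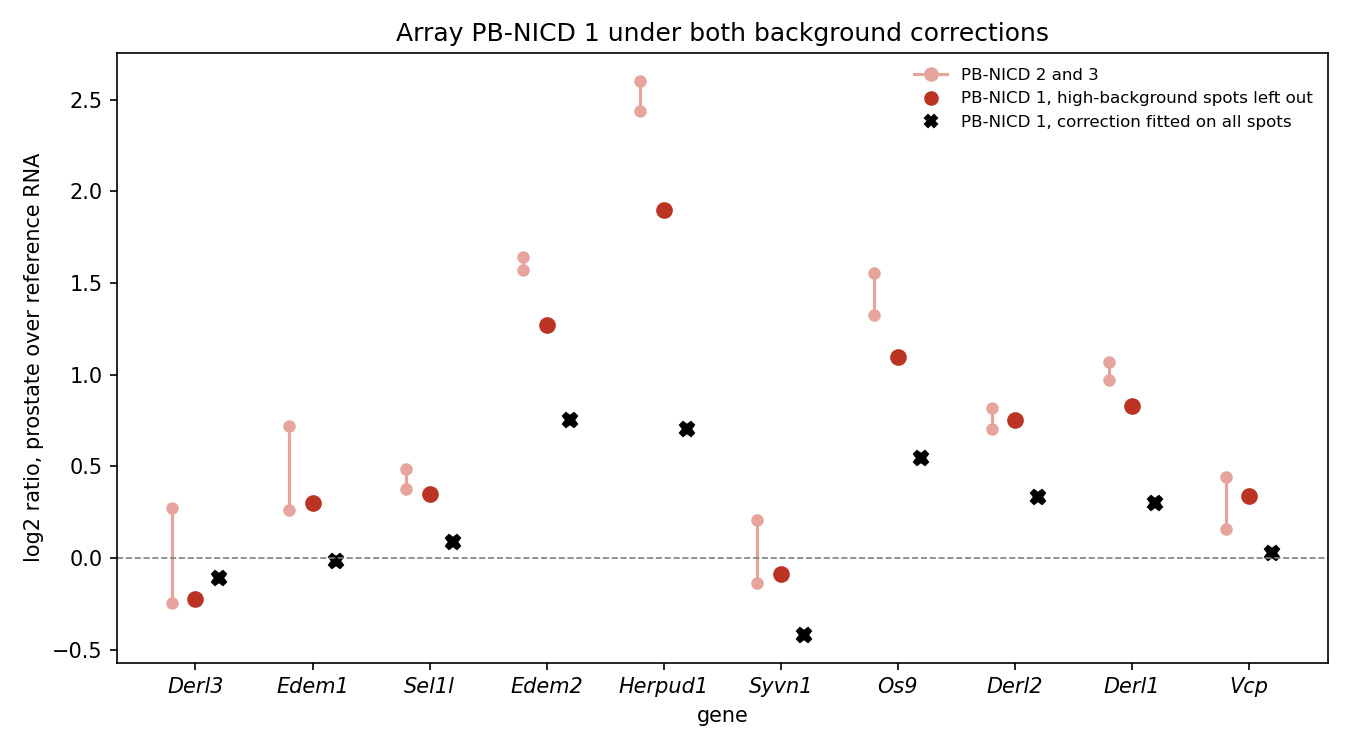
Log2 ratio of prostate over reference RNA (vertical axis) for the 10 genes on array PB-NICD 1 with high-background spots left out (red points) and with the correction fitted on all spots (black crosses), beside PB-NICD 2 and 3 (joined pale points). For Herpud1 the fit on all spots gave 0.71 where PB-NICD 2 and 3 stood at 2.44 and 2.60, and leaving out the spots gave 1.90.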

How the data were processed

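Per the file headers, each array was scanned and its spot intensity extracted by Agilent software, Feature Extraction 10.7.3.1. Used here were the deposited intensity columns of median signal for spots and for the background around them, not normalized, and of processed signal, already corrected for background and dye by that software. The deposited LogRatio is log10 of red over green per the file headers, and 0 or 1 flags mark outlier, saturated and well-above-background spots. The authors' deposited value table is on a log2 scale, red over green, with column medians near 0 (-0.015 to -0.009). Its columns matched their own scanner ratios at r = 0.989 to 0.995, and the sources used here do not give its normalization.

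From the scanner signals, limma 3.58.1 under R 4.3.3 corrected background by normexp with an offset of 50 and normalized by loess within arrays. Spots with local background over 2 times the array median were first left out, a choice made after seeing the data. Control and outlier spots had weight 0, and outlier spots were then set missing. The offset understates changes of dim genes. Of 41174 probes, 24375 were named through the RefSeq table of GRCm38.p6 and 16799 were not. Probes well above background on at least 3 arrays with at least 2 values a group were tested, with the brightest probe per gene, giving 16939 items. limma's lmFit and eBayes were used, two-sided, with Benjamini-Hochberg adjustment over all items and a threshold of 0.05. With 3 and 4 arrays, precision is limited by their number.

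The 10 genes, the pathway list and the marker lists were chosen with earlier results of these data known. Named beyond the 10 were the pathway genes past the threshold, up to the 12 with the smallest p, the 5 with the largest change that did not pass, and the 5 genes most like the mean of those of the 10 measured on all arrays, of which 1 is not reported here. The fit was tested on simulated data. Other background, dye, filter, probe, slide and pairing settings and the omission of each array were tried. Leukocyte markers showed 0 calls of 5 tested, urothelium 1 rise (Upk3a, 5.04) of 3, endothelium 1 fall (Emcn) of 2 and seminal vesicle 0 of 2. Over all items 4.60% were called lower and 3.49% higher. The main fit did not pair the samples by title number.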

Additional observations from a re-analysis of the deposited data

How the results depend on the processing

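Precision is limited by 3 and 4 arrays, dim prostate signal and outlier spots, which left Derl2 with 2 values a group. Calls of the 10 genes ranged from 4 to 10 over 23 alternatives, and their median change from -1.57 to -0.51, with 8 or 9 genes tested in some. The cause of each shift below was not tested.

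For all items, 1370 were called (591 higher, 779 lower). Median centring called 5631 (5380 higher, 251 lower), the sample channel alone 899 (494 higher, 405 lower), and 3210 were called in the authors' values. Slide 2 alone gave 616. Normexp fitted on all spots gave 462 (70 higher, 392 lower). That fit lacks the exclusion of high-background spots, which was chosen after seeing the data. Leaving out 1 array gave 728 to 1548, with 867 without PB-NICD 1 and 728 without PB-NICD 2. For the pathway genes lower, 11 became 7 with the processed signals, 1 with median centring, 7 with the sample channel, 23 with the authors' value table, 5 within slide 2, 6 with normexp on all spots, and 6 to 12 with 1 array left out. Of these, 7 were called without PB-NICD 1, 6 without PB-NICD 2, 7 without control 1 and 7 without control 4. The median of the 10 genes moved to -0.51 with median centring (-0.82 relative to the shifted median of all items). It was -1.01 in the sample channel alone and -1.57 within slide 2 (8 genes). With 1 array left out it lay from -1.50 (without PB-NICD 3, 9 genes) to -1.12. Os9 had no tested probe without PB-NICD 2 or PB-NICD 3, where 6 of 9 genes passed. Of the 10 genes, 5 passed without PB-NICD 1, 6 without control 2 or control 4, 7 without control 1 and 9 without control 3.

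Median centring turned Derl1 (0.031), Derl2 (0.10), Os9 (0.12), Vcp (0.11), Atf6 (0.032), Stub1 (0.069), Ube2n (0.14), Erlec1 (0.31), Rnf5 (0.33), Erlin2 (0.070), Get4 (0.29) and Txndc11 (0.081) positive, beside a median of 0.31 for all items. Against the reference, median centring gave 2273 items higher and 12242 lower, against 6056 and 5122 before. The slide interaction called 4 items, 0 with the processed signals (749 at an unadjusted p below 0.05), 1 with median centring, 0 with outlier spots kept (734 unadjusted) and 262 with normexp on all spots.

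Deviations of samples with the same title number correlated at 0.32, -0.27 and 0.05 over the 3 numbers, with no shared sign. The samples numbered 1 shared a slide, as did those numbered 3, while those numbered 2 did not. Pairing and slide can therefore not be told apart here. With the number as a replicate block, 931 items were called, 7 pathway genes were lower, 5 of the 10 genes passed and their median was -1.06. Among named pathway genes, 73 alternative values lost the call and 22 gained one, without a change of sign except as listed.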
